A study of Mus musculus with 10 samples.

Results

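This account covers 9 genes for cytokine receptor chains of lymphocytes, Il7r, Il2rb, Il2rg, Il15ra, Il21r, Il4ra, Il6ra, Il6st and Il18r1, taken by symbol from the 45706 genes of a deposited expression table. Each symbol matched 1 Ensembl gene, and all 9 are described, whatever their values. The series holds RNA-seq libraries of mouse spleen T cells and of cDC2s, the type 2 subset of conventional dendritic cells, which present antigen and bear SIRP alpha, the receptor for CD47. One genotype was Cd47ΔT, in which, by its name, Cd47 is deleted in T cells, and the control genotype was Cd47f/f, whose Cd47 alleles carry loxP sites. There were 2 Cd47ΔT and 2 Cd47f/f T cell libraries, and 3 Cd47ΔT and 3 Cd47f/f cDC2 libraries.

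The sources used here do not give the Cre line, the deleted exons, the age of the mice or the way the cells were isolated. Per the labels' protocols, the TruSeq stranded mRNA kit served for T cell libraries and the SMART-seq stranded kit for cDC2 libraries, so cell type and kit cannot be told apart in levels. No label ties replicates to separate mice, and p-values therefore rest on a spread among libraries that may be technical. Values are TPM, a level per transcript length with 1 shared total for all libraries. This scaling drops the read number, so that depth is unknown and no counting error can be given. Per library, 11514 to 12594 genes reached 1 TPM. The targeted gene stood at 40.4 and 51.7 TPM in Cd47ΔT T cells, against 138 and 233 TPM in Cd47f/f T cells. In cDC2s Cd47 averaged 148 ± 12.1 TPM in Cd47ΔT and 149 ± 11.5 TPM in Cd47f/f mice (SD, n = 3 each). The 9 general T cell markers summed to 4352 to 4768 TPM in Cd47ΔT and 4645 to 4749 TPM in Cd47f/f T cells, and none of them passed the test. The 14 cDC2 markers summed to 1630 to 1666 TPM in Cd47ΔT and 1918 to 2044 TPM in Cd47f/f cDC2s. All were detected in both genotypes, and 3 of them were lower in Cd47ΔT cDC2s, as were 0.381% of all genes tested there.

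Naive and memory T cells live on cytokines of other cells, chiefly interleukin 7 and interleukin 15. The chains described here pair on the cell surface: the common gamma chain (Il2rg) is shared by the receptors for interleukins 2, 4, 7, 9, 15 and 21, and gp130 (Il6st) by those of the interleukin 6 family. Both kinds signal through JAK kinases and STAT factors, whereas the interleukin 18 receptor signals through MyD88. In T cells Il7r is known to be high in naive and long-lived memory cells and low after activation, and Il2rb to be high in memory and natural killer (NK) cells.

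The genes lie on 7 chromosomes of the GRCm38 build. Il7r (chr15:9505788-9530176, minus strand) and Il2rb (chr15:78479256-78495271, minus strand) share chromosome 15 at a distance of 68.9 Mb. Il4ra (chr7:125552120-125579474) and Il21r (chr7:125603429-125633570) are neighbours on the plus strand, 24.0 kb apart with no annotated gene between them. Il18r1 (chr1:40465552-40500854, plus strand) lies 14.5 kb from Il18rap, the gene of its partner chain, also with no gene between them. Il2rg (chrX:101264378-101268255, minus), Il15ra (chr2:11705290-11734317, plus), Il6ra (chr3:89864059-89913196, minus) and Il6st (chr13:112464070-112510086, plus) are each the 1 member on their chromosome. Il2rg is overlapped on its own strand by the protein-coding gene Gm20489, which was listed at 0 in all T cell libraries and reached at most 1.12 TPM in Cd47ΔT and 0.64 TPM in Cd47f/f cDC2s. On the opposite strand Il4ra is overlapped by Gm44876 and Il6ra by Gm42809.

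Promoter windows of 250 bases before the RefSeq transcript start (GRCm38.p6) were found for 8 of the 9 members, 11 windows in all. Both strands were searched for 4 motifs, whose matches did not overlap in these windows, and shares are of the 32851 windows of all genes. The ETS motif, spelled AGGAAGT, was held by 7.69% of those windows. The GC box, spelled GGGCGG, was held by 32.7% of them. The STAT motif, spelled TTCNNNGAA, was held by 7.02%, and 3.17% held the FOXO motif, which was spelled GTAAACA here. The windows below belong to Il7r, the 1 member whose genotype effect differed between the cell types, to Il2rg, the shared chain that did not pass any test, and to both chains of the interleukin 6 receptor. They run 5′ to 3′ on the gene's strand, and capitals mark a motif match on either strand. Coordinates are chr15:9529877-9530126 (minus) for Il7r, chrX:101268256-101268505 (minus) for Il2rg, chr3:89913197-89913446 (minus) for Il6ra and chr13:112463820-112464069 (plus) for Il6st.
Il7r: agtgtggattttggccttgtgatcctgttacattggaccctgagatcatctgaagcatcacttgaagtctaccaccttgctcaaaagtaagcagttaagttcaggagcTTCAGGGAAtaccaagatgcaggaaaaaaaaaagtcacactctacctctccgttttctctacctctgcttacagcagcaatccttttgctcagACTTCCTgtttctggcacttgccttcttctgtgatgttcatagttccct
Il2rg: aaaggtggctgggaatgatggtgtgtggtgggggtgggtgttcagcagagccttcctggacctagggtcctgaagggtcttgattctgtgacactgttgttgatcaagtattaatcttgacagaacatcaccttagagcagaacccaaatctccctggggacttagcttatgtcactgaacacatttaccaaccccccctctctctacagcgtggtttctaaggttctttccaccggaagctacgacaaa
Il6ra: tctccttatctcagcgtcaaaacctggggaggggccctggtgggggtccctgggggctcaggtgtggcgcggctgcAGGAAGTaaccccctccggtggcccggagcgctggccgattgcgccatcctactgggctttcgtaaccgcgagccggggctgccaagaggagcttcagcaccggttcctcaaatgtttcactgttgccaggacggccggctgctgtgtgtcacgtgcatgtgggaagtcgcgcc
Il6st: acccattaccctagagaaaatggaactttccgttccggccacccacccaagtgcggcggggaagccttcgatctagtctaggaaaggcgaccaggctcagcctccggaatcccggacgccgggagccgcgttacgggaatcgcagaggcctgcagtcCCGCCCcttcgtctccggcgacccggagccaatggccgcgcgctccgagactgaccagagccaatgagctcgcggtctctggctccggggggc
The Il7r window held an ETS match from base -49 to -43 and a STAT match from -142 to -134, counted from the RefSeq start, which lies 41 bases before the nearest coding transcript start of GENCODE and inside the span that GENCODE gives the gene. The Il6ra window held an ETS match from -174 to -168, and the Il6st window a GC box from -93 to -88. The Il2rg window held none of these letters. Of the windows not printed, that of Il4ra held a GC box, that of Il21r a GC box and a FOXO match, and 1 of 3 windows of Il18r1 a pair of STAT matches. A match describes these letters and says nothing of binding.

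Il7r, the alpha chain of the receptor for interleukin 7, was lower in T cells and differed in the opposite direction in cDC2s. It stood at 164 and 172 TPM in Cd47ΔT T cells, against 254 and 300 TPM in Cd47f/f T cells. Both Cd47ΔT libraries were below both Cd47f/f libraries. In cDC2s, where its level was far lower, it stood at 7.02, 10.4 and 7.84 TPM in Cd47ΔT, against 3.21, 4.19 and 3.04 TPM in Cd47f/f mice. All 3 Cd47ΔT cDC2 libraries were above all 3 Cd47f/f libraries. Fold changes are given throughout for TPM + 1 on the log2 scale, with Cd47ΔT on top, and understate changes of low genes. The log2 fold change of Il7r was -0.71 ± 0.12 in T cells (SE, limma with Benjamini-Hochberg adjustment over all genes tested, adjusted p = 0.0199). In cDC2s the log2 fold change was 1.06 ± 0.24 with adjusted p = 0.112, which missed the threshold of 0.05. The difference between these effects, T cells minus cDC2s, was -1.78 ± 0.27 (95% interval -2.37 to -1.19, adjusted p = 0.00261), and it stayed under 0.05 in all 21 alternative settings tried. The T cell call was lost without Cd47ΔT T cell library 1 (adjusted p = 0.0793), without a filter on low values (0.0884), without a variance trend (0.0626) and when all libraries were fitted together (0.0592). That last setting brought the cDC2 value past the threshold (adjusted p = 0.0141).

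Markers of T cell states moved with Il7r. The 8 markers of naive T cells summed to 2987 to 3104 TPM in Cd47ΔT and 3955 to 4162 TPM in Cd47f/f T cells, and 4 of them were lower in Cd47ΔT T cells. The 12 markers of effector and memory T cells summed to 3859 to 4087 TPM in Cd47ΔT and 1542 to 1787 TPM in Cd47f/f T cells, with 10 of them higher. Over all genes tested in T cells, 8.5% were higher and 0.875% lower. The marker counts of T cell libraries given further on stand beside these same shares. In bulk libraries such as these, fewer cells of a type and less RNA per cell cannot be told apart, and the part of either marker list in the Il7r value was not tested. In the cDC2 libraries the 9 general T cell markers summed to 19.5 to 24.9 TPM in Cd47ΔT and 16.1 to 23.4 TPM in Cd47f/f mice, with 2 of the 9 at 0 in all libraries. Their part in the cDC2 values of Il7r was not tested.

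Il2rb, the beta chain shared by the receptors for interleukins 2 and 15, rose in T cells and was listed at 0 in all 6 cDC2 libraries. It stood at 312 and 352 TPM in Cd47ΔT T cells, against 116 and 185 TPM in Cd47f/f T cells. The groups did not overlap, and the lower Cd47ΔT library was far above the higher Cd47f/f library. The log2 fold change was 1.17 ± 0.22 (adjusted p = 0.0264). The call was lost without a filter (adjusted p = 0.123) and without a variance trend (0.0560), and it held without each T cell library in turn, at log2 fold changes of 0.84 to 1.51. Markers of NK cells and type 1 innate lymphoid cells, which carry this chain too, moved the same way: the 8 markers summed to 167 to 225 TPM in Cd47ΔT and 70.6 to 99.7 TPM in Cd47f/f T cells, none was at 0, and 5 of them were higher. Most of the Cd47f/f sums came from Eomes (27.98 and 42.81 TPM) and Prf1 (35.95 and 45.64 TPM), which T cells express too. In Cd47ΔT T cells Eomes stood at 58.93 and 55.99 TPM and Prf1 at 48.41 and 57.89 TPM. The effector and memory T cell markers given above rose as well, with 10 of 12 higher. The part of either list in the Il2rb value was not tested.

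Il2rg, the common gamma chain, was the highest of the 9 genes in every group and did not pass the test in either cell type. It stood at 658 and 618 TPM in Cd47ΔT T cells, against 552 and 637 TPM in Cd47f/f T cells. In cDC2s Il2rg stood at 242, 236 and 261 TPM in Cd47ΔT, against 286, 251 and 262 TPM in Cd47f/f mice. The groups overlapped in both cell types. The log2 fold change was 0.11 ± 0.11 in T cells (95% interval -0.16 to 0.37) and -0.11 ± 0.0907 in cDC2s (-0.32 to 0.10), with adjusted p of 0.706 and 0.652, and the T cell value changed sign under a pair of other scalings.

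Il15ra, the chain that binds interleukin 15 and presents it to neighbouring cells, was the lowest of the 9 in T cells. It stood at 12.3 and 12.2 TPM in Cd47ΔT T cells, against 6.15 and 11.2 TPM in Cd47f/f T cells. In cDC2s the Il15ra libraries were widely spread, at 6.44, 16.6 and 7.47 TPM in Cd47ΔT and 19.1, 13.1 and 3.24 TPM in Cd47f/f mice. The T cell groups lay apart by about 1 TPM, and the cDC2 groups overlapped over most of their range. The log2 fold changes, 0.51 ± 0.28 in T cells (adjusted p = 0.399) and -0.0374 ± 0.58 in cDC2s (adjusted p = 0.986), did not pass. The T cell value passed only without Cd47f/f T cell library 2, at a log2 fold change of 0.89 (adjusted p = 0.0323), and without Cd47f/f library 1 it was 0.12.

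Il21r and Il4ra bind interleukins 21 and 4, each beside the common gamma chain, and neither passed the test in either cell type. Il21r stood at 125 and 122 TPM in Cd47ΔT T cells, against 109 and 128 TPM in Cd47f/f T cells. In cDC2s it stood at 87.2, 87.6 and 73.4 TPM in Cd47ΔT, against 74.3, 78.5 and 90.7 TPM in Cd47f/f mice. The genotypes overlapped in both cell types, and the log2 fold changes were 0.0623 ± 0.12 in T cells (95% interval -0.24 to 0.36) and 0.0272 ± 0.12 in cDC2s.

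Its neighbour Il4ra stood at 59.8 and 66.0 TPM in Cd47ΔT T cells, against 72.4 and 82.9 TPM in Cd47f/f T cells. In cDC2s Il4ra stood at 27.8, 29.0 and 27.4 TPM in Cd47ΔT, against 30.0, 30.4 and 38.9 TPM in Cd47f/f mice. The Cd47ΔT libraries were below the Cd47f/f libraries without overlap in both cell types, by margins smaller than the spread among the Cd47f/f libraries. The log2 fold change of Il4ra was -0.30 ± 0.14 in T cells (adjusted p = 0.278) and -0.22 ± 0.14 in cDC2s (adjusted p = 0.558). With median-of-ratios scaling the T cell value was -0.45 and passed (adjusted p = 0.0453).

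Il6ra, which binds interleukin 6, and Il6st, the gp130 chain that signals for it, both lay below control in the Cd47ΔT libraries of each cell type, and neither passed the test. Il6ra stood at 56.7 and 63.0 TPM in Cd47ΔT T cells, against 67.4 and 107 TPM in Cd47f/f T cells. In cDC2s it stood at 64.7, 55.6 and 64.9 TPM in Cd47ΔT, against 76.1, 76.1 and 85.7 TPM in Cd47f/f mice. Neither cell type showed an overlap, but in T cells the gap between the genotypes was small beside the distance between the Cd47f/f libraries.

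Il6st stood at 67.2 and 75.2 TPM in Cd47ΔT T cells, against 79.4 and 120 TPM in Cd47f/f T cells. In cDC2s Il6st stood at 88.2, 97.5 and 97.7 TPM in Cd47ΔT, against 132, 118 and 135 TPM in Cd47f/f mice, where every Cd47ΔT library was below every Cd47f/f library. The log2 fold change in T cells was -0.50 ± 0.22 for Il6ra (adjusted p = 0.275) and -0.46 ± 0.21 for Il6st (adjusted p = 0.284). In cDC2s it was -0.36 ± 0.11 for Il6ra (adjusted p = 0.225) and -0.44 ± 0.098 for Il6st (adjusted p = 0.115). Both T cell values rested on Cd47f/f library 2: without Cd47f/f library 1 they were -0.82 and -0.75 and passed (adjusted p = 0.0267 and 0.0303), and without Cd47f/f library 2 they were -0.17 and -0.16. The antisense gene Gm42809 reached at most 2.96 TPM in Cd47ΔT and 4.57 TPM in Cd47f/f T cells. The sources used here do not say whether counting used strand, and the split between these genes is uncertain.

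Il18r1, the ligand-binding chain of the receptor for interleukin 18, a cytokine that drives interferon gamma in memory T and NK cells, did not pass the test. It stood at 69.2 and 68.6 TPM in Cd47ΔT T cells, against 29.1 and 57.9 TPM in Cd47f/f T cells. Both Cd47ΔT libraries were above both Cd47f/f libraries, but the gap to the nearer Cd47f/f library was smaller than the distance between the Cd47f/f libraries. The log2 fold change of Il18r1 was 0.73 ± 0.30 (adjusted p = 0.230). It rested on the choice of Cd47f/f library, with 1.21 without library 2, where it passed (adjusted p = 0.00773), and 0.25 without library 1. In cDC2s the Il18r1 value was listed at 0 in Cd47ΔT library 1 and did not exceed 0.35 TPM in the other Cd47ΔT libraries or 1.91 TPM in Cd47f/f libraries, below the filter for a test.

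Il18rap, the second chain of that receptor, was named as the neighbour and partner of Il18r1 after its values were seen. It stood at 42.4 and 57.9 TPM in Cd47ΔT T cells, against 11.96 and 23.6 TPM in Cd47f/f T cells, and rose with a log2 fold change of 1.50 ± 0.32 (adjusted p = 0.0389). The ratio of Il18rap to Il18r1 was 0.612 and 0.845 in Cd47ΔT T cells, against 0.411 and 0.407 in Cd47f/f T cells. The groups lay apart in this ratio. In cDC2s Il18rap was low, at 0.11, 1.19 and 0.28 TPM in Cd47ΔT, against 2.24, 1.86 and 1.36 TPM in Cd47f/f mice. It did not pass there (log2 fold change -0.94 ± 0.37, adjusted p = 0.321).

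**Figure D1:**
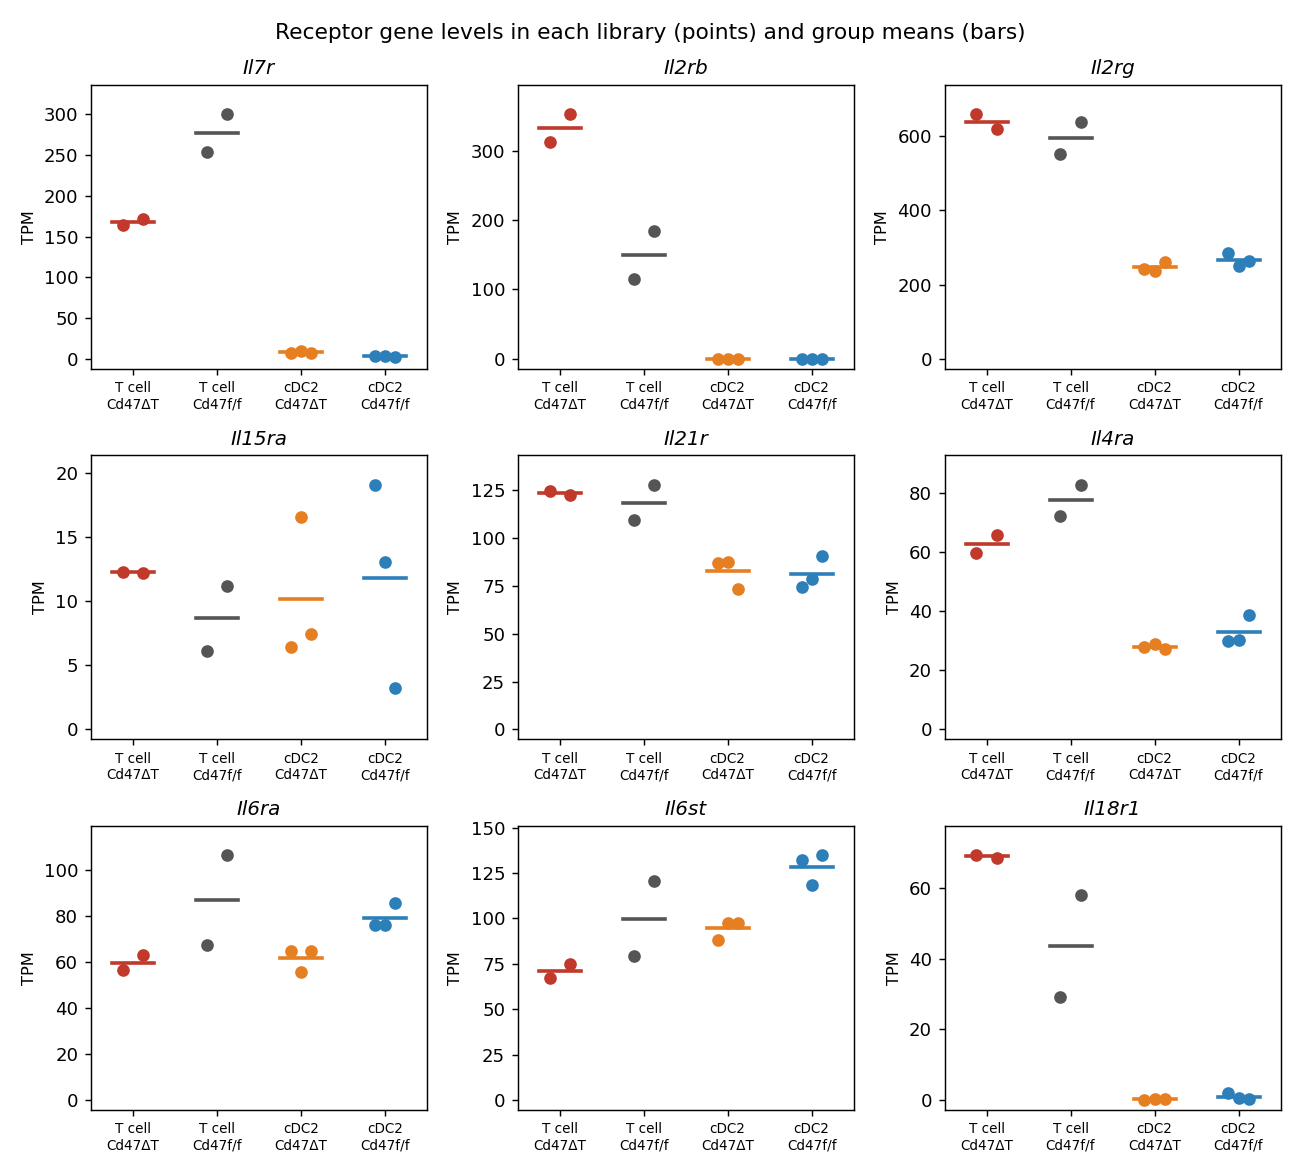
TPM of the 9 receptor genes in each library (points) with the group mean (bars), on linear axes that differ between panels. Each panel has Cd47ΔT and Cd47f/f T cells (n = 2 each) and then Cd47ΔT and Cd47f/f cDC2s (n = 3 each). In T cells Il7r lies at 164 and 172 TPM in Cd47ΔT libraries, below 254 and 300 TPM in Cd47f/f libraries, and Il2rb lies the other way, at 312 and 352 TPM in Cd47ΔT libraries against 116 and 185 TPM in Cd47f/f libraries.

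Of the 9 members in T cells, 1 rose (Il2rb) and 1 fell (Il7r), where 8.5% of the 12453 genes tested rose, 0.875% fell and 9.37% did either. An unadjusted p under 0.05 was found for 3 of the 9 (Il7r, Il2rb and Il18r1), and for 21.6% of genes tested. For 7 of the 9 the genotypes did not overlap, and the same held for 48.9% of genes. Of these 7, 3 were higher in Cd47ΔT T cells, where 37% of all genes tested were higher without overlap, and 4 were lower, where 11.9% were. The median log2 fold change of the members was 0.06, beside 0.10 over all genes tested. In cDC2s 7 members passed the filter on low values and none of them passed the test, where 0.63% of 12058 genes did (0.249% higher and 0.381% lower). There 3 members (Il7r, Il6st and Il6ra) had an unadjusted p under 0.05, as did 13.4% of genes tested. The genotypes did not overlap for 4, and for 19.9% of genes: 1 was higher in Cd47ΔT cDC2s, where 6.38% of genes were, and 3 were lower, where 13.5% were. Their median was -0.11, beside -0.07 over all genes tested. For the difference between the genotype effects, 1 of 7 members passed (Il7r, lower in T cells). Of the 10650 genes tested 0.3% passed in that direction, 5.4% in the other and 5.7% in either, and 15.8% had an unadjusted p under 0.05, as did Il7r alone among the members. The other 6 had adjusted p-values of 0.595 to 0.987.

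**Figure D2:**
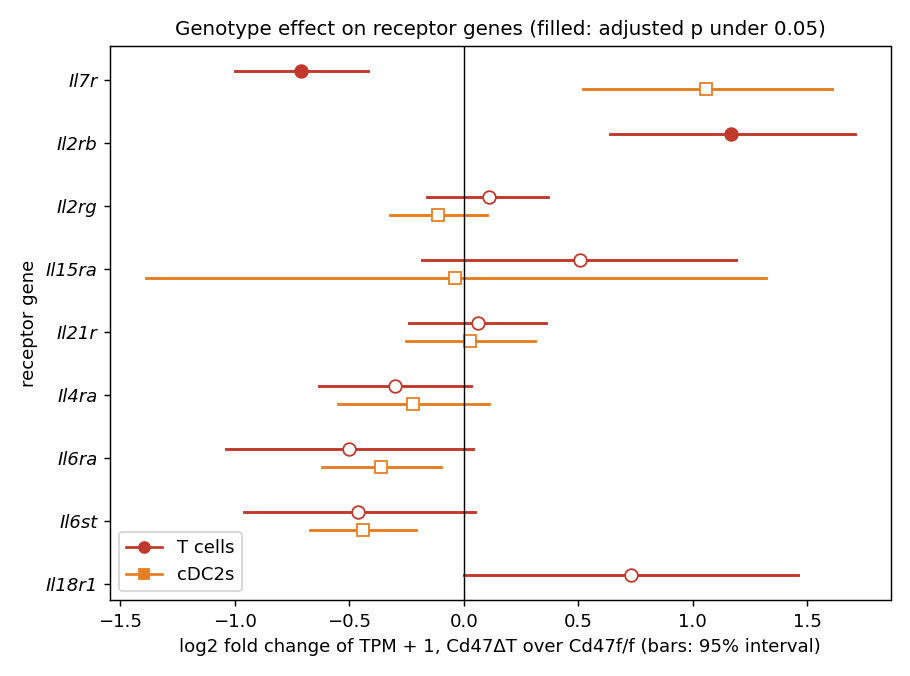
Log2 fold change of TPM + 1, Cd47ΔT over Cd47f/f, for each receptor gene in T cells (circles) and cDC2s (squares), with 95% intervals from limma. Filled symbols passed an adjusted p of 0.05: Il7r at -0.71 and Il2rb at 1.17, both in T cells. Il2rb and Il18r1 have no cDC2 value since they did not pass the filter.

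Ratios of chains within a library do not depend on how that library was scaled. Il2rb to Il7r was 1.90 and 2.05 in Cd47ΔT T cells, against 0.457 and 0.616 in Cd47f/f T cells, so Il2rb exceeded Il7r in both Cd47ΔT libraries and in neither Cd47f/f library. The log2 ratio was 1.89 higher in Cd47ΔT T cells and 1.68 to 2.11 higher without each library in turn. Il7r to Il2rg was 0.250 and 0.278 in Cd47ΔT T cells, against 0.459 and 0.471 in Cd47f/f T cells. In cDC2s the same ratio was 0.0290, 0.0441 and 0.0300 in Cd47ΔT, against 0.0112, 0.0167 and 0.0116 in Cd47f/f mice. The ranges did not overlap in either cell type, and the order of the genotypes was opposite. Il6ra to Il6st, by contrast, was 0.844 and 0.838 in Cd47ΔT and 0.848 and 0.885 in Cd47f/f T cells, a log2 difference of -0.04. In cDC2s it was 0.734, 0.570 and 0.664 in Cd47ΔT and 0.576, 0.642 and 0.636 in Cd47f/f mice, with overlap. With 2 against 2 libraries the smallest p of a two-sided exact permutation test is 0.333, and with 3 against 3 it is 0.1, so none of the 12 ratios tested could pass. The ratios above had these smallest values, except Il6ra to Il6st in cDC2s, with an exact p of 0.5, and the lowest p adjusted over the 12 was 0.444.

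**Figure D3:**
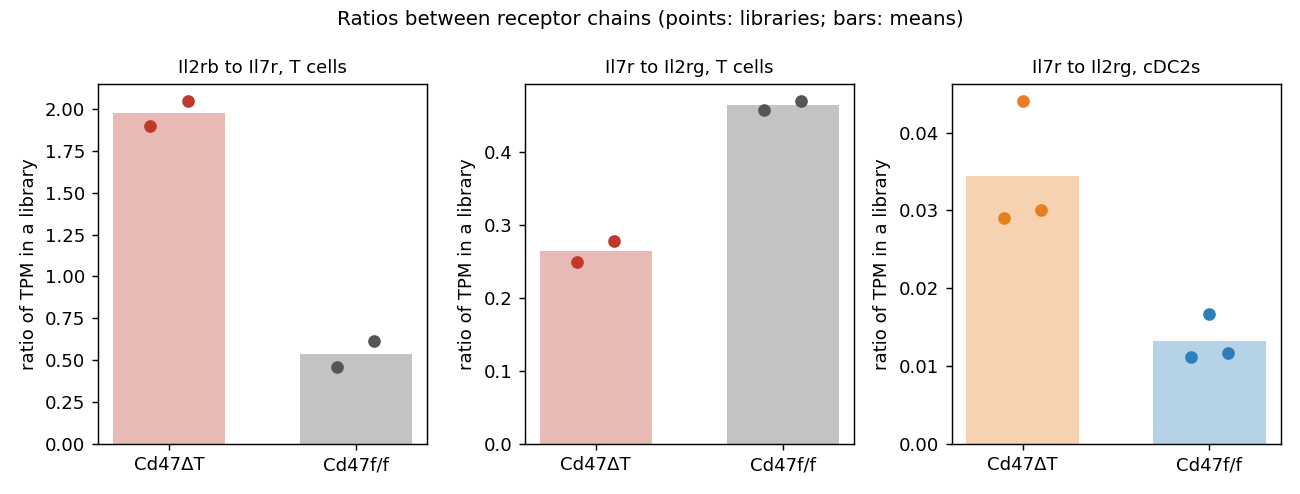
Ratio of the TPM of 2 chains in each library (points) with group means (bars from 0), Cd47ΔT left of Cd47f/f. Il2rb to Il7r in T cells averaged 1.97 in Cd47ΔT and 0.537 in Cd47f/f libraries. Il7r to Il2rg averaged 0.264 in Cd47ΔT and 0.465 in Cd47f/f T cells, and 0.0344 in Cd47ΔT and 0.0132 in Cd47f/f cDC2s.

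By mean level, Il2rb stood above Il7r in Cd47ΔT T cells and below it in Cd47f/f T cells. In Cd47ΔT T cells the order was Il2rg (638 TPM on average), Il2rb (332), Il7r (168), Il21r (123), Il6st (71.2), Il18r1 (68.9), Il4ra (62.9), Il6ra (59.9) and Il15ra (12.3). Il6st and Il18r1 overlapped there, as did Il4ra and Il6ra, while each of the other neighbours was separated in both libraries. In Cd47f/f T cells Il2rg (594 TPM) was followed by Il7r (277) and then by Il2rb (150), Il21r (119), Il6st (99.9), Il6ra (87.0) and Il4ra (77.7), 5 genes in which each overlapped the next. Il18r1 (43.5) and Il15ra (8.69) came last, each separated.

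In cDC2s the order began with Il2rg and Il6st in both genotypes. In Cd47ΔT cDC2s Il2rg (247 TPM) was followed by Il6st (94.5), Il21r (82.7), Il6ra (61.7), Il4ra (28.1), Il15ra (10.2), Il7r (8.42) and Il18r1 (0.21), and only Il15ra and Il7r, and Il18r1 and Il2rb at 0, were not separated from each other. In Cd47f/f cDC2s Il2rg (267 TPM) was followed by Il6st (128), Il21r (81.2), Il6ra (79.3), Il4ra (33.1), Il15ra (11.8), Il7r (3.48) and Il18r1 (0.897). Il21r overlapped Il6ra there, and Il15ra overlapped Il7r.

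Across the 10 libraries, the genes most like Il7r by Pearson r of log2(TPM + 1) were Als2cl (0.997), Acp5 (0.996) and Vipr1 (0.995). Those most like Il2rg were Isg20l2 (0.997), Trp53 (0.996) and Itgb7 (0.996), and those most like Il4ra were Ccm2 (0.995), Zfp141 (0.994) and Utp4 (0.994). Il6st came closest to Aqr (0.966), Zscan26 (0.959) and Zbtb44 (0.943), and Il6ra to Pacs2 (0.931), Itpr2 (0.903) and Fam117b (0.882). Il21r came closest to Suclg2 (0.987), Snapin (0.984) and Slc35c1 (0.984), and Il15ra to Ago3 (0.924), Alkbh1 (0.910) and Slc4a2 (0.909). These r describe 10 libraries that fall into 2 cell types, each with its own kit, and for Il7r, Il2rg, Il21r and Il4ra most of the range lies between the cell types.

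Around the members, 111 genes of partner and other receptor chains, ligands, kinases, inhibitors, targets and regulators were read from 8 lists. In T cells 99 of them were tested, of which 13 rose and 5 fell, where 8.5% of all genes tested rose and 0.875% fell, and their median log2 fold change was 0.16, beside 0.10 over all genes tested. In cDC2s 90 were tested, of which 1 rose and none fell, where 0.249% of all genes rose and 0.381% fell, with a median of -0.13, beside -0.07. The counts of each list below stand against these same shares and medians of all genes, and nothing particular to a list is read from them. None of the 18 T cell calls changed sign in an alternative setting, and all 18 were lost without a filter on low values, where 15 genes were called in all. The T cell counts moved with the libraries: 7 genes were higher without Cd47ΔT library 1 and 7 without Cd47ΔT library 2, 8 without Cd47f/f library 1 and 27 without Cd47f/f library 2, and 2 to 8 were lower. Without each library in turn the genes called higher numbered 2 to 9 among partner and other receptor chains and 1 to 2 among ligands. They numbered 0 to 5 among feedback inhibitors, 0 to 3 among survival and growth targets and 1 to 4 among transcription factors.

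Of the genes called in T cells, Il13ra1 and Lif reached 1 TPM only in the Cd47ΔT libraries, where they are high. They were therefore not tested without either of those libraries. Il23r, tested but not called, stood at 1.13 and 2.06 TPM in Cd47ΔT and 0.14 and 0.85 TPM in Cd47f/f T cells. Genes let in by their higher group can raise the T cell counts and medians of the lists. Single calls moved as follows. Leaving out Cd47ΔT T cell library 1 ended the calls of Il9r, Il10rb, Cish, Usp18, Bcl2l1, Lef1, Ifngr2 and Tgfbr2 (adjusted p from 0.0823 to 0.498), and leaving out Cd47ΔT library 2 those of Il9r, Il10rb, Usp18, Bcl2l1, Ifngr2 and Tgfbr2 (0.0655 to 0.350). Without Cd47f/f library 1 those of Il9r, Il13ra1, Il18rap, Il18 and Lif were lost (0.0580 to 0.0926), and without Cd47f/f library 2 that of Lif (0.0638). Of the genes named below that had not passed, Il2ra, Il18bp and Jak3 passed without Cd47f/f library 2 (0.0284 to 0.0483), among the 27 higher there.

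Among the 20 partner and other receptor chains, 18 were tested in T cells, 5 rose and 2 fell, and the median was 0.68. Not all of them pair with a member: Il10ra, Il10rb, Ifngr2 and Tgfbr2 belong to other cytokine receptors. Il10ra, the ligand-binding chain for interleukin 10, stood at 45.1 and 49.7 TPM in Cd47ΔT T cells, against 17.4 and 24.7 TPM in Cd47f/f T cells (log2 fold change 1.15 ± 0.20, adjusted p = 0.0209). Its partner Il10rb rose by 0.67 ± 0.14 (adjusted p = 0.0320), the interleukin 9 receptor Il9r by 1.10 ± 0.21 (adjusted p = 0.0298) and Il13ra1, which pairs with Il4ra, by 1.31 ± 0.23 (adjusted p = 0.0230). Il13ra1 was low, at 2.04 and 2.17 TPM in Cd47ΔT and 0.14 and 0.37 TPM in Cd47f/f T cells. It passed the T cell filter only through the Cd47ΔT libraries. In cDC2s it averaged 9.65 TPM in Cd47ΔT and 8.85 TPM in Cd47f/f libraries. Monocyte and macrophage markers moved with it in T cells, where all 10 tested of the 11 were higher. The 11 genes summed to 2070 to 2353 TPM in Cd47ΔT and 646 to 832 TPM in Cd47f/f libraries. Most of that sum was Ly6c2, which T cells express too and which is also among the effector and memory markers. Ly6c2 stood at 1707 and 1738 TPM in Cd47ΔT, against 595 and 738 TPM in Cd47f/f T cells. The 10 red pulp macrophage markers summed to 184 to 288 TPM in Cd47ΔT and 25.2 to 32.0 TPM in Cd47f/f T cells, and all 10 were higher in Cd47ΔT T cells. Their part in the Il13ra1 value was not tested. The 2 chains that fell were Ifngr2, a chain of the interferon gamma receptor (log2 fold change -0.81), and Tgfbr2, which binds TGF beta (-0.64).

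Il2ra, the alpha chain that completes the high-affinity receptor for interleukin 2 with Il2rb and Il2rg, stood at 16.4 and 13.0 TPM in Cd47ΔT T cells, against 6.52 and 8.35 TPM in Cd47f/f T cells. The groups lay apart, but the log2 fold change of 0.90 ± 0.22 did not pass (adjusted p = 0.0582), although it passed in 3 of 16 alternative settings. Regulatory T cells carry this chain, and their 7 markers, of which Il2ra is 1, summed to 353 to 461 TPM in Cd47ΔT and 150 to 155 TPM in Cd47f/f T cells, with 5 higher. In cDC2s none of 15 partner and other receptor chains tested passed. Crlf2, which forms the receptor for thymic stromal lymphopoietin with Il7r, averaged 36.2 ± 6.30 TPM in Cd47ΔT and 37.1 ± 8.46 TPM in Cd47f/f cDC2s (SD, n = 3 each). The ratio of Il7r to Crlf2 in those libraries was 0.162, 0.316 and 0.244 in Cd47ΔT, against 0.110, 0.117 and 0.066 in Cd47f/f mice, without overlap. The chains with the smallest p in cDC2s were Il12rb2, at 53.9, 63.3 and 54.9 TPM in Cd47ΔT against 40.6, 36.7 and 37.8 TPM in Cd47f/f mice (adjusted p = 0.0888, and 0.0493 with median-of-ratios scaling), and Il10ra (log2 fold change -0.42 ± 0.10, adjusted p = 0.134).

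Of 16 ligands of these receptors, 7 were tested in T cells, 3 rose and none fell, with a median of 0.77. Ebi3, a subunit of interleukins 27 and 35, stood at 10.5 and 8.39 TPM in Cd47ΔT T cells, against 2.51 and 1.76 TPM in Cd47f/f T cells (log2 fold change 1.74 ± 0.24, adjusted p = 0.0118). Il18 rose by 1.80 ± 0.33 (adjusted p = 0.0258) and Lif, a ligand of the interleukin 6 family, by 1.09 ± 0.23 (adjusted p = 0.0351), both below 6 TPM in every T cell library. Lif averaged 1.92 TPM in Cd47ΔT and 0.365 TPM in Cd47f/f T cells, and passed the filter only through the Cd47ΔT libraries. Ebi3 was lower in Cd47ΔT cDC2s without passing the test, at 27.7, 26.1 and 17.1 TPM against 42.5, 44.2 and 66.9 TPM in Cd47f/f cDC2s (log2 fold change -1.08 ± 0.24, adjusted p = 0.106). Il7 did not exceed 0.14 TPM in any library, and Il15 in cDC2s averaged 2.39 ± 0.968 TPM in Cd47ΔT and 3.16 ± 0.654 TPM in Cd47f/f mice (SD, n = 3 each).

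Of the 13 listed genes that rose in T cells, some averaged more in cDC2s than in T cells of the same genotype. These were Ebi3, Il18, Il10ra, Il13ra1, and Usp18 and Adam8, an inhibitor and a protease described further on. Il9r, Il18rap, Lif, Cish and Bcl2l1 averaged less in cDC2s in both genotypes, and Il10rb and Tbx21 in Cd47ΔT alone. Levels in the 2 cell types came from different kits. Dendritic cell markers moved with the risen genes in the T cell libraries. Of the 14 cDC2 markers 10 were tested there, with 7 higher and 1 lower. Their sum was 248 to 266 TPM in Cd47ΔT and 314 to 344 TPM in Cd47f/f T cells, and 1 of the 14 was at 0 in both Cd47f/f libraries. Most of that sum came from Cd4 and Dtx1, which T cells express too. Cd4 stood at 108 and 60.2 TPM in Cd47ΔT, against 170 and 190 TPM in Cd47f/f T cells. Dtx1 stood at 102.5 and 102 TPM in Cd47ΔT, against 131.8 and 137.6 TPM in Cd47f/f T cells. Sirpa, the gene of SIRP alpha, stood at 15.6 and 28.3 TPM in Cd47ΔT T cells, against 1.91 and 2.78 TPM in Cd47f/f T cells. Of the 9 cDC1 markers (of the type 1 subset) 7 were tested and 5 were higher, with sums of 579 to 623 TPM in Cd47ΔT and 370 to 435 TPM in Cd47f/f T cells that include Cd8a and Itgae, which T cells express too. None of these 9 was at 0 in all libraries of a genotype. The monocyte and macrophage markers given above moved as well. The part of any of these lists in the T cell values of the risen genes was not tested.

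None of the 11 JAK kinases and STAT factors passed in either cell type, and their median log2 fold change was 0.08 in T cells and -0.02 in cDC2s. Jak3, the kinase bound to the common gamma chain, had the smallest p in T cells, at 56.9 and 60.2 TPM in Cd47ΔT against 42.9 and 46.6 TPM in Cd47f/f libraries (log2 fold change 0.38 ± 0.13, adjusted p = 0.147). Stat5b, which carries interleukin 2, 7 and 15 signals to the nucleus, followed with -0.32 ± 0.14 (adjusted p = 0.255), and passed at -0.44 with quantile scaling (adjusted p = 0.0470) and at -0.47 with median-of-ratios scaling (adjusted p = 0.0354). In cDC2s the smallest p belonged to Jak2 (0.28 ± 0.0875, adjusted p = 0.231) and Stat5a (0.46 ± 0.15, adjusted p = 0.252).

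Of 18 feedback inhibitors, 2 rose in T cells and none fell, with a median of 0.21. Cish, a STAT5 target that dampens interleukin 2 receptor signalling, stood at 23.6 and 21.9 TPM in Cd47ΔT T cells, against 9.11 and 10.6 TPM in Cd47f/f T cells (log2 fold change 1.13 ± 0.18, adjusted p = 0.0161). Usp18, an interferon-induced inhibitor, rose by 0.71 ± 0.16 (adjusted p = 0.0474), a call that held in 5 of 16 alternative settings. In cDC2s none passed, and the smallest p belonged to Socs1 (0.71 ± 0.21, adjusted p = 0.208) and Ptprc (-0.20 ± 0.0853, adjusted p = 0.366).

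Of 14 survival and growth targets of common gamma chain cytokines, 1 rose in T cells and none fell, with a median of 0.23. Bcl2l1, which encodes the survival protein Bcl-xL, stood at 29.3 and 27.7 TPM in Cd47ΔT T cells, against 11.8 and 15.2 TPM in Cd47f/f T cells (log2 fold change 1.03 ± 0.18, adjusted p = 0.0236). None of the 14 passed in cDC2s, where Pim2 (-1.06 ± 0.36, adjusted p = 0.259) and Bcl6 (-0.24 ± 0.11, adjusted p = 0.419) had the smallest p. In the same T cell libraries 11 of 12 cell cycle markers were higher, with sums of 827 to 894 TPM in Cd47ΔT and 302 to 387 TPM in Cd47f/f libraries. Their part in the Bcl2l1 value was not tested.

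Of 10 genes of interleukin 18 signalling none passed in either cell type. Il18bp, a secreted protein that binds interleukin 18, came closest in T cells, at 4.93 and 5.39 TPM in Cd47ΔT against 1.47 and 2.46 TPM in Cd47f/f libraries (log2 fold change 1.07 ± 0.25, adjusted p = 0.0511), and it passed in 6 of 15 alternative settings. The kinase Irak2 followed with 0.46 ± 0.21 (adjusted p = 0.292), and in cDC2s the adaptor Myd88 (-0.22 ± 0.12, adjusted p = 0.494) and the kinase Irak4 (-0.20 ± 0.12, adjusted p = 0.546) had the smallest p. Of 5 genes around receptor shedding, 4 were tested in T cells and Adam8, a membrane metalloprotease, rose by 1.54 ± 0.27 (adjusted p = 0.0229). Adam8 stood at 6.36 and 7.79 TPM in Cd47ΔT and 1.26 and 2.37 TPM in Cd47f/f T cells, whereas it averaged 99.7 TPM in Cd47ΔT and 106 TPM in Cd47f/f cDC2s. In cDC2s Rhbdf2, a partner of the sheddase ADAM17, had a log2 fold change of -0.56 ± 0.20 (adjusted p = 0.291). Gene-level TPM do not separate membrane from soluble forms of a receptor.

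Of 17 transcription factors reported to control Il7r or Il2rb, 1 rose and 3 fell in T cells, with a median of -0.12. Tbx21 (T-bet, which drives Il2rb in effector cells) stood at 36.0 and 41.9 TPM in Cd47ΔT T cells, against 14.2 and 19.3 TPM in Cd47f/f T cells (log2 fold change 1.18 ± 0.20, adjusted p = 0.0190). Tcf7, which encodes TCF1 of naive and memory T cells, stood at 616 and 645 TPM in Cd47ΔT T cells, against 975 and 1039 TPM in Cd47f/f T cells (log2 fold change -0.67 ± 0.0921, adjusted p = 0.0118). Its relative Lef1 fell by 0.66 on the log2 scale (adjusted p = 0.0203), and Zbtb7b, the CD4 lineage factor ThPOK, fell to 27.0 and 25.7 TPM in Cd47ΔT T cells, against 49.0 and 59.1 TPM in Cd47f/f T cells (adjusted p = 0.0153). Tcf7 and Lef1 are also among the naive T cell markers summed above, and Tbx21 is among the effector and memory markers. In the same libraries Cd4 stood at 108 and 60.2 TPM in Cd47ΔT, against 170 and 190 TPM in Cd47f/f T cells. Cd8a stood at 499 and 514 TPM in Cd47ΔT, against 332 and 380 TPM in Cd47f/f T cells. The part of a change in CD4 and CD8 T cells in these values was not tested.

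In cDC2s Tcf7 was the 1 of 14 factors tested that passed, and it rose. It stood at 133, 125 and 179 TPM in Cd47ΔT cDC2s, against 65.0, 68.0 and 58.5 TPM in Cd47f/f cDC2s (log2 fold change 1.16 ± 0.15, adjusted p = 0.0250). All 3 Cd47ΔT libraries were above all 3 Cd47f/f libraries. The cDC2 call held in 8 of 17 alternative settings. It was lost without each cDC2 library in turn, at adjusted p-values of 0.0631 to 0.0970, without a filter (0.0663) and without a variance trend (0.0919). Tcf7 thus had the same signs as Il7r, lower in Cd47ΔT T cells and higher in Cd47ΔT cDC2s, and the difference between its effects was -1.84 ± 0.21 (adjusted p = 0.000377). Small non-coding RNAs took 25.2%, 22.1% and 21.8% of TPM in Cd47ΔT and 17.7%, 21.3% and 16.1% in Cd47f/f cDC2s, and scaling to protein-coding genes left the log2 fold change of Tcf7 at 1.23.

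**Figure D4:**
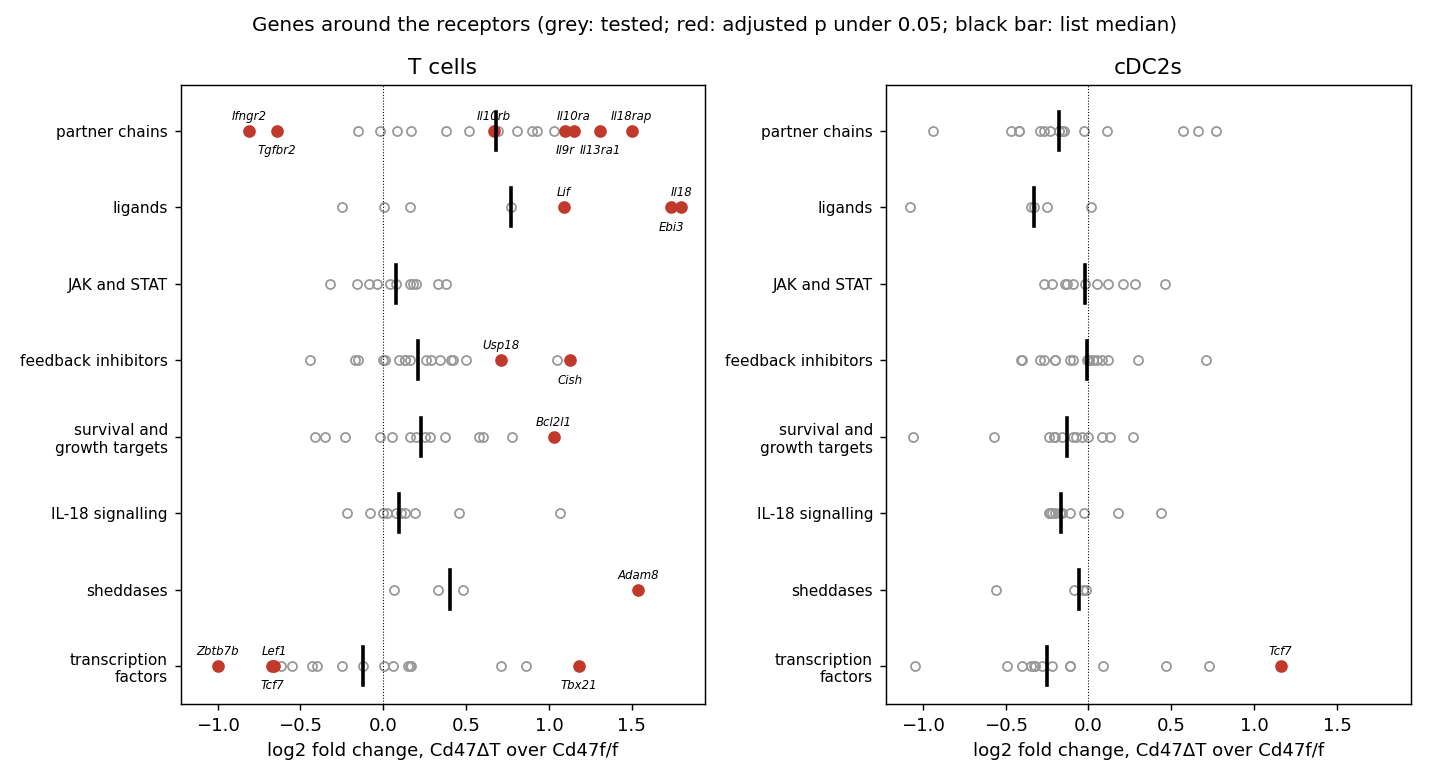
Log2 fold change, Cd47ΔT over Cd47f/f, of each tested gene of the 8 lists in T cells (left) and cDC2s (right), with the list median as a black bar. Red points passed an adjusted p of 0.05 and are named. The right panel holds 1 such point, Tcf7 at 1.16, and the left panel has Tcf7 at -0.67.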

How the data were processed

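TPM per gene were computed by the authors and deposited as 1 table of 45706 Ensembl genes in 10 libraries. STAR, RSEM, DESeq2 and the GRCm38 build are named, without versions, per the submitters' processing notes. GENCODE M21 gave symbols for 45143 identifiers (98.8%), and 563 did not match. A gene was tested if at least 2 T cell or 3 cDC2 libraries held 1 TPM or more. On log2(TPM + 1), limma 3.58.1 was fitted in R 4.3.3 with genotype alone and moderated with a trend of variance on level (eBayes). Benjamini-Hochberg adjustment ran over all genes tested, and an adjusted p under 0.05 was called. The difference between genotype effects was a contrast in 1 fit of all libraries over genes that passed both filters. Of log2 changes of 1 built into simulated data, the T cell steps recovered 7.0% and the cDC2 steps 42.0%. Of changes of 2 they recovered 42.0% and 75.0%. False calls there were 1 of 50 in T cells and 4 of 121 in cDC2s. The real libraries gave 1167 calls in T cells and 76 in cDC2s, unlike the simulated ones, and the adjusted threshold depends on that number. These recovered shares, and their order between the cell types, therefore need not hold for the real data. A gene that did not pass can still differ. The members, lists and tests were chosen with earlier results of these data known. Of each list, up to 4 called genes with the smallest p were named, or up to 2 where none was called. Il18rap, Il2ra, Crlf2, Ifngr2, Tgfbr2, Il7 and Il15 were named besides. Figures were made with matplotlib 3.10.9 in Python 3.11.15.

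T cell results were recomputed in 16 alternative settings: a pseudocount of 0.1 or 5, a filter of 5 TPM or none, 4 other scalings (quantile, median-of-ratios, protein-coding genes, Cd3 genes), a robust trend of variance or none, 1 fit over all libraries, replicate number as a block, and each library left out. cDC2 results had 17, with 6 libraries to leave out and no Cd3 scaling. The difference between effects had 21, with 10 libraries to leave out and without 1 fit over all libraries, which is its own fit. Some low genes had fewer, and chain ratios were recomputed only without each library.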

Additional observations from a re-analysis of the deposited data

Results flagged for a closer look

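The results given here were picked out because the genotype effect differed between T cells and cDC2s by limma's test of the difference itself, with p adjusted over 10650 genes. Each value is the log2 fold change in T cells minus that in cDC2s. Among the receptor genes it was Il7r alone, at -1.78 ± 0.27 (SE, adjusted p = 0.00261). The targeted gene Cd47 stood at -1.94 ± 0.28 (adjusted p = 0.00175), and Tcf7 at -1.84 ± 0.21 (adjusted p = 0.000377). In the other direction were Ebi3 at 2.82 ± 0.37 (adjusted p = 0.00107), Il18rap at 2.44 ± 0.50 (adjusted p = 0.0134) and Adam8 at 1.63 ± 0.27 (adjusted p = 0.00395). So were Il10ra at 1.57 ± 0.22 (adjusted p = 0.00144) and Il13ra1 at 1.20 ± 0.32 (adjusted p = 0.0493). Il13ra1 passed the T cell filter only through the Cd47ΔT libraries. Il18rap passed the cDC2 filter only through the Cd47f/f libraries, and did not exceed 2.24 TPM in any cDC2 library. The values of Il7r, Cd47, Tcf7, Ebi3, Adam8 and Il10ra passed in all 21 alternative settings, that of Il18rap in 18 of 20 and that of Il13ra1 in 4 of 18. The Il18rap value was lost without Cd47f/f T cell library 1 (adjusted p = 0.0988) and without Cd47ΔT T cell library 2 (adjusted p = 0.117).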

How the results depend on the processing

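Of 410 receptor gene values recomputed under alternatives, 364 kept their direction and their side of the threshold, 6 lost the call, 9 gained one and 31 changed sign. The counts of receptor genes called moved as follows. In T cells 1 was higher: this became 0 without a filter and 0 without a variance trend, and ran from 1 to 3 without each library in turn (3 without Cd47f/f library 2). In T cells 1 was lower: this became 0 without a filter, 0 without a variance trend, 0 in 1 fit of all libraries and 2 with median-of-ratios scaling, and ran from 0 to 3 without each library (3 without Cd47f/f library 1, 0 without Cd47ΔT library 1). In cDC2s 0 were higher, and 1 (Il7r) in 1 fit of all libraries. The count for the difference between cell types did not move. Of the 99 listed pathway genes tested in T cells 13 were higher, which became 0 without a filter and 26 with the replicate block, and 7 to 27 without each library. The 5 lower became 0 without a filter, 2 without a variance trend, 9 with quantile, 9 with median-of-ratios scaling and 10 with the replicate block, and 2 to 8 without each library. In cDC2s the 1 higher (Tcf7) became 0 without a filter, 0 without a variance trend, 0 with the replicate block and 2 with median-of-ratios scaling, and 0 without each library. One fit over all libraries was no alternative for the difference between cell types, since it is the fit used there.

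These values changed sign. Il2rg in T cells was -0.0504 with median-of-ratios and -0.0232 with Cd3 scaling, and its difference between cell types -0.0112 with median-of-ratios. Il21r in T cells was -0.0523 with quantile, -0.0927 with median-of-ratios and -0.0657 with Cd3 scaling, and -0.0493 to 0.17 without each library. Its difference was -0.14, -0.19, -0.0687 and -0.0929 with quantile, median-of-ratios, protein-coding and Cd3 scaling, and -0.0765 to 0.15 without each library. Il15ra in cDC2s was 0.0162, 0.0323 and 0.0286 with quantile, median-of-ratios and protein-coding scaling. Without each library Il15ra in cDC2s ran from -0.70 to 0.42 and Il21r in cDC2s from -0.0334 to 0.11. Without each library the difference ran from -0.20 to 0.0171 for Il4ra, -0.47 to 0.19 for Il6ra and -0.31 to 0.28 for Il6st. The cause of these changes was not tested. The median log2 fold change of all genes in T cells was 0.10, -0.0812 with quantile, -0.0408 with median-of-ratios and -0.0160 with Cd3 scaling. Calls over all genes in T cells ran from 14 to 1986 higher (1058 as reported) and from 1 to 336 lower (109), and in cDC2s from 0 to 68 higher (30) and 0 to 103 lower (46).

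No label says that a replicate number marks a shared source. Deviations of same-numbered libraries correlated at 0.19 in T cells, where 2 pairs give 1 mirrored value that cannot show a pairing, and at -0.04, 0.06 and 0.12 in cDC2s. With the replicate number as a block, which leaves 1 residual degree of freedom per gene in T cells, 2 receptor genes were higher there (Il2rb, and Il18r1 with adjusted p = 0.000143) and 3 lower (Il7r, Il6ra with 0.0117 and Il6st with 0.0197). None passed in cDC2s, where the Tcf7 call was lost (0.0854), and Il7r still differed between cell types.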

Other observations

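Markers of further cell types had these summed levels. Over all genes tested, 8.5% were higher in Cd47ΔT T cells and 0.249% in Cd47ΔT cDC2s. In T cell libraries the 10 B cell markers summed to 66.5 to 145 TPM in Cd47ΔT and 17.5 to 21.5 TPM in Cd47f/f mice, with 6 of 7 tested higher, and the 7 plasma cell markers to 418 to 455 TPM in Cd47ΔT and 101 to 118 TPM in Cd47f/f mice, with 6 of 7 higher. The 12 neutrophil markers summed to 40.1 to 108 TPM in Cd47ΔT and 5.25 to 10.4 TPM in Cd47f/f T cell libraries, with 5 of 6 tested higher. The 9 erythroid markers summed to 91.0 to 180 TPM in Cd47ΔT and 28.1 to 38.8 TPM in Cd47f/f T cell libraries, with 4 of 5 tested higher. The 8 markers of plasmacytoid dendritic cells summed to 234 to 288 TPM in Cd47ΔT and 186 to 187 TPM in Cd47f/f T cell libraries, with 3 higher. The 6 platelet and megakaryocyte markers summed to 15.9 to 17.8 TPM in Cd47ΔT and 22.6 to 30.1 TPM in Cd47f/f T cell libraries, and the 1 tested did not pass.

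In cDC2 libraries the B cell markers summed to 122 to 170 TPM in Cd47ΔT and 221 to 274 TPM in Cd47f/f mice, and the NK cell markers summed to at most 1.20 TPM in Cd47ΔT and 1.33 TPM in Cd47f/f mice. The erythroid markers summed to 62.5 to 203 TPM in Cd47ΔT and 26.1 to 111 TPM in Cd47f/f cDC2s, with 1 of 5 tested higher. The tested markers of B cells, plasma cells, neutrophils, plasmacytoid dendritic cells, platelets, cDC1s, monocytes and red pulp macrophages did not pass in cDC2s.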
